A study of Homo sapiens with 8 samples.

Results

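KLF2, PRDM1, ZEB1, BCL11B, RNF130 and LAIR1 form a group of T cell genes under discussion as tumour suppressors that are shut down in leukaemia. They were taken by gene symbol from the platform annotation, which gave each of the 6 exactly 1 probe set among the 21448 transcript probe sets of the array. Their levels were read on 8 arrays of whole cultures from a pair of human T cell lines. MT-1 was grown from a leukaemia of this kind, adult T cell leukaemia, while MT-2 came from T cells that HTLV-1, the virus of that disease, had transformed. Each line was left untreated, given the DNA demethylating agent OR21, given EPZ-6438 (tazemetostat), which blocks the histone methyltransferase EZH2, or given both (the combination). The OR21 dose was 500 nM for MT-1 but 100 nM for MT-2, the EPZ-6438 dose 2500 nM against 500 nM, and exposure lasted 96 h, so line and dose cannot be told apart. Each group was 1 array, so a change within a line has no replicate error and no test. Each line stands for 1 culture lineage, and in whole cultures more RNA per cell and more expressing cells cannot be told apart.

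DNA methylation at CpG sites of a start region and trimethylation of histone H3 by EZH2 are separate ways by which cells keep a gene off. A demethylating agent removes the first mark as cells divide, and an EZH2 inhibitor lets the second be diluted. In T cells the 6 genes have different roles. KLF2 is a zinc finger factor that holds T cells in quiescence and drives their exit from lymphoid tissue. PRDM1 encodes Blimp-1, a transcriptional repressor that promotes terminal lymphocyte differentiation. ZEB1 is a repressor with zinc fingers and a homeodomain, known for silencing epithelial genes and IL2. BCL11B is the factor that commits thymocytes to the T lineage. RNF130 is a ubiquitin ligase of the membrane-bound PA-TM-RING family, and LAIR1 is an inhibitory surface receptor for collagens.

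On GRCh38.p14 the annotated genes span these positions: KLF2 (probe set TC1900007270.hg.1) at chr19:16324826-16328685, PRDM1 (probe set TC0600008972.hg.1) at chr6:105992690-106109938, ZEB1 (probe set TC1000007199.hg.1) at chr10:31318417-31529804, BCL11B (probe set TC1400010156.hg.1) at chr14:99169287-99272197, RNF130 (probe set TC0500013429.hg.1) at chr5:179911651-180071759 and LAIR1 (probe set TC1900011414.hg.1) at chr19:54351384-54376088. Because OR21 acts on CpG methylation, the stretches just upstream of annotated start sites are shown for the genes that moved most and for those that stayed near the array background. RefSeq (GRCh38.p14) gave 14 start windows for the 6 genes, and the 250 bases before the first listed start are printed for 5 of them, 5′ to 3′ on the gene's strand. Capitals mark every C followed by G, a motif that reads the same on both strands. They lie at chr19:16324576-16324825 (plus strand) for KLF2, chr5:180071760-180072009 (minus strand) for RNF130, chr6:106086086-106086335 (plus strand) for PRDM1, chr19:54364932-54365181 (minus strand) for LAIR1 and chr14:99272198-99272447 (minus strand) for BCL11B.
KLF2: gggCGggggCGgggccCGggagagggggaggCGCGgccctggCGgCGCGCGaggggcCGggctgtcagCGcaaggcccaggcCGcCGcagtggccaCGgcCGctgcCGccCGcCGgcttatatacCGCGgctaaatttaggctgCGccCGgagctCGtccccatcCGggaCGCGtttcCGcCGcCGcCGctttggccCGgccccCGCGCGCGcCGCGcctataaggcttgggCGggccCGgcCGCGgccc
RNF130: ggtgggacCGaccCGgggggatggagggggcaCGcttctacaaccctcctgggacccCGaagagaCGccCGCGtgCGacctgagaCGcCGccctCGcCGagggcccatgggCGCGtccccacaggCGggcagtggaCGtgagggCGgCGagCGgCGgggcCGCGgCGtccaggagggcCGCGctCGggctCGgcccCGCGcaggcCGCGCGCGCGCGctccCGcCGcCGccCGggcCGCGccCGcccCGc
PRDM1: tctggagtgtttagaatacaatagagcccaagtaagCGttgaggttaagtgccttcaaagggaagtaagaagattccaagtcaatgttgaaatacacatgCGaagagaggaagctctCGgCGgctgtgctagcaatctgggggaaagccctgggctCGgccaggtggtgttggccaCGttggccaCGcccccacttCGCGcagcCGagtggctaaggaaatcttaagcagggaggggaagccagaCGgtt
LAIR1: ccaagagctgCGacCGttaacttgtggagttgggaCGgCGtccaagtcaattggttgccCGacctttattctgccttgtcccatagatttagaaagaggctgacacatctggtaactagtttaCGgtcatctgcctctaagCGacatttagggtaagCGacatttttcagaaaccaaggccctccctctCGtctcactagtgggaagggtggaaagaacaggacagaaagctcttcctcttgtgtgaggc
BCL11B: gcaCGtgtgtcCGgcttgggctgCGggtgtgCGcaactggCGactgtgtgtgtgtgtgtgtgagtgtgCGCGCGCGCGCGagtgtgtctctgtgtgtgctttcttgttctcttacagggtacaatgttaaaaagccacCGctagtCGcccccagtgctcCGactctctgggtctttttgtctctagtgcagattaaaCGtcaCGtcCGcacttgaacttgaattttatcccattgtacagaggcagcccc

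The KLF2 stretch held 41 CpG sites and that of RNF130 held 43, against 11 for PRDM1, 9 for LAIR1 and 17 for BCL11B. The PRDM1 and LAIR1 stretches lie inside the annotated gene spans, and those of KLF2, RNF130 and BCL11B lie directly before them. The counts thus compare unlike positions. Over the whole window of 300 bases (250 before and 50 after the start), RNF130 had 52 and KLF2 had 49. Only 0.780% and 1.6% of 35116 reference windows held as many, counting windows of full length and leaving out chromosome 8. The median window held 14, the same as the first window of PRDM1, whose second window held 8. BCL11B had 20, the LAIR1 windows had 10 and 8, and the 7 windows of ZEB1 ran from 7 to 35. Observed over expected CpG, a ratio that corrects for base composition, was 1.02 for RNF130, 1.0 for KLF2, 0.86 for BCL11B, 0.65 and 0.46 for PRDM1, 0.49 for both LAIR1 windows, and 0.56 to 1.03 for the ZEB1 windows, the highest of which was also the highest of all 14. The median over the 35116 windows was 0.58. These counts describe the reference letters, and methylation was not measured on these arrays.

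**Figure D1:**
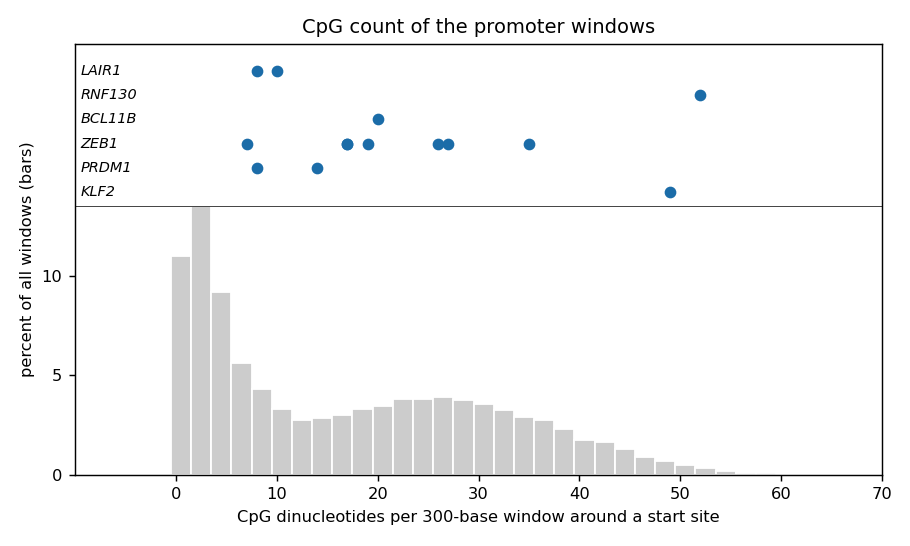
CpG dinucleotides per 300-base window around annotated start sites. Grey bars give the percent of the 35116 windows counted in the text, and blue points above the line give the windows of each gene. KLF2 (49) and RNF130 (52) lie in the upper tail, while the PRDM1 and LAIR1 windows lie at 14 or fewer.

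Before any agent was added, part of the group was not above the array background. A level was called above background where it exceeded the array's own limit, the 95th percentile among its negative controls, which lay between 7.19 and 7.80 on the log2 scale. PRDM1 and ZEB1 were above it on all 8 arrays, untreated ones included. RNF130 stood at 4.10 in untreated MT-1, not above background, and at 9.67 in untreated MT-2, a difference of at least 2.21. KLF2 had the opposite order, at 8.15 in untreated MT-1 and at 6.20, not above background, in untreated MT-2 (a difference of -0.35 or lower). PRDM1 stood at 10.83 in MT-1 versus 11.61 in MT-2 (0.79), and ZEB1 at 9.26 and 9.54 (0.27). BCL11B and LAIR1 were not above background in either untreated line. Thus 3 of the 6 genes were silent by this measure in untreated MT-1 and 3 in untreated MT-2. Of all 21448 transcript probe sets, 8949 were above background in untreated MT-1 and 8126 in untreated MT-2. Most probe sets were thus silent by the same measure, so these counts do not set the 6 genes apart.

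Across the series, array medians lay between 6.44 and 6.68, and the median change against untreated over the 12942 probe sets kept by a filter on dim signals lay between -0.06 and -0.02. The filter kept 5 of the 6 genes and dropped BCL11B. Of 10 T cell markers measured, 3 or 4 were above background per array. CD5 and CD247 were above it on all 8 arrays, while CD3D, CD3E, CD3G, CD2 and LCK were above it on none. None of 5 myeloid and 3 natural killer cell markers reached background on any array. Of 4 B cell markers, between 0 and 2 did. The joint list of epithelial, endothelial and fibroblast markers stood apart on a single array. In MT-1 with the combination 3 of 7 were above background, against 1 of 7 on each other array. These 3 were the epithelial genes KRT8, KRT18 and EPCAM. The endothelial and fibroblast genes PECAM1, VWF, COL1A1 and PDGFRB were above background on no array. The summed level of the list (log2 of the sum of linear values) was 13.12 in MT-1 with the combination. It was 8.84 in untreated MT-1, 10.45 with OR21, 8.94 with EPZ-6438, and 9.19 to 9.34 in MT-2. KRT8 reached 12.91 on the MT-1 combination array from 7.77 untreated. The erythroid list (HBA1 and ALAS2 measured) had its highest summed level on the same array, 10.04 against 7.24 in untreated MT-1, with HBA1 at 10.00. The part these transcripts had in the results on that array was not tested.

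**Figure D2:**
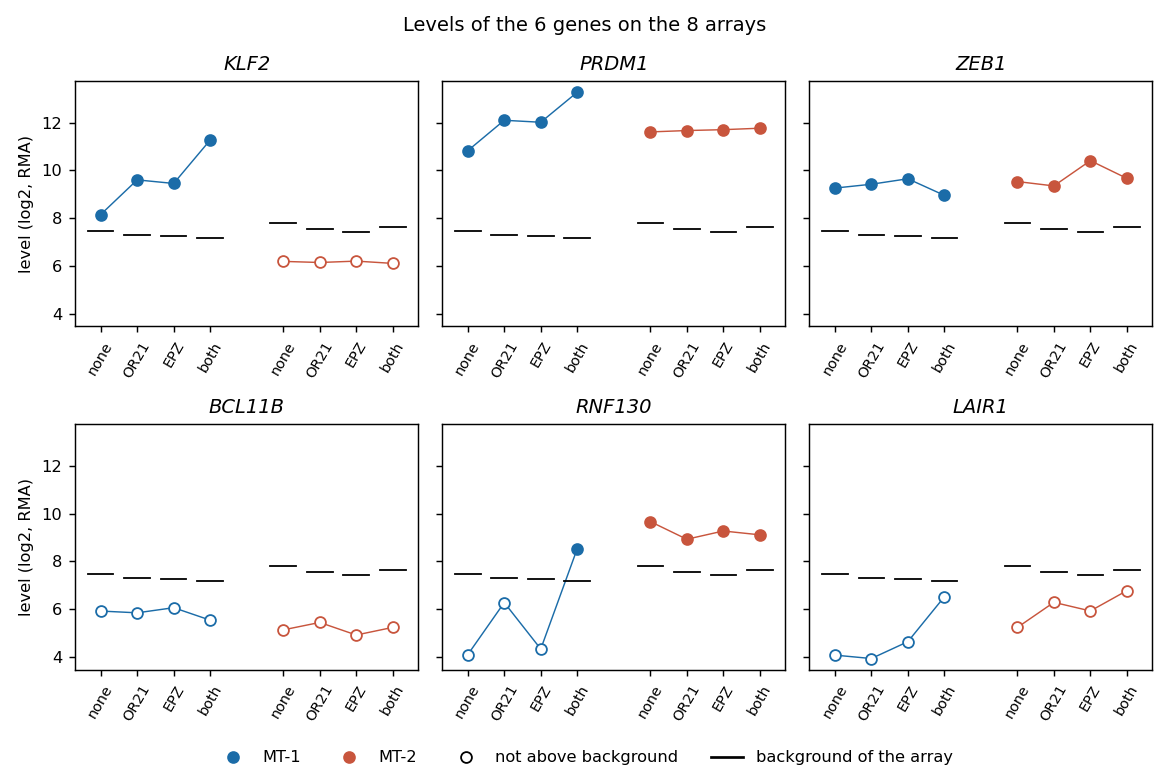
Deposited log2 level of each gene (vertical axis) on the 4 arrays of MT-1 (blue) and MT-2 (red), in the order untreated, OR21, EPZ-6438 and both. Filled points lie above the background of the array (black bars) and open points do not. KLF2 and PRDM1 step up in MT-1 from 8.15 to 11.27 and from 10.83 to 13.28, and BCL11B and LAIR1 stay under the bars on all 8 arrays.

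In MT-1, KLF2 and PRDM1 were higher by 1 log2 unit or more with each agent alone and with both, while MT-2 showed this for neither. In MT-1, KLF2 stood at 8.15 untreated, 9.61 with OR21, 9.46 with EPZ-6438 and 11.27 with the combination. These levels are changes of 1.45 (2.74-fold), 1.30 (2.47-fold) and 3.12 (8.69-fold) against the untreated array. In MT-2 it stood at 6.20, 6.15, 6.21 and 6.11 in the same order, under the background on all 4 arrays, so no change is given there. All 3 treated MT-1 arrays were above the untreated 1, and the combination array was the highest.

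PRDM1 in MT-1 stood at 10.83 untreated, 12.10 with OR21, 12.02 with EPZ-6438 and 13.28 with the combination. Its changes were 1.27 (2.42-fold), 1.19 (2.28-fold) and 2.45 (5.46-fold). In MT-2 the levels were 11.61, 11.67, 11.71 and 11.77, within 0.16 of the untreated array. Untreated MT-1 was the lowest of the 8 arrays for PRDM1, and after the combination MT-1 was above MT-2 by 1.51.

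Percentiles in this paragraph rank the deposited differences of all kept probe sets. Shares higher or lower by 1 or more follow the background rule instead. That rule gives no change where both arrays were under the background and a bound where 1 was. The percentiles and shares are therefore unlike measures. Among the kept probe sets, KLF2 and PRDM1 lay at percentiles 99.6 and 99.5 of all changes with EPZ-6438 in MT-1, where 0.232% of probe sets were higher by 1 or more. With OR21 they lay at percentiles 97.2 and 96.5, with 2.11% of probe sets higher by 1 or more. With the combination they lay at 97.8 and 96.8, with 6.35%. So 2 of the 6 genes passed 1 unit upward with OR21, 2 with EPZ-6438 and 3 with the combination in MT-1, RNF130 being the third. In MT-2 the counts were 0 of 6 with each treatment, where 0.672% (OR21), 0.27% (EPZ-6438) and 2.47% (combination) of all kept probe sets were higher by 1 or more. None of the 6 was lower by 1 or more in either line. The shares of kept probe sets that were so lower were 2.76% with OR21, 0.131% with EPZ-6438 and 7.99% with the combination in MT-1, and 0.904%, 0.108% and 1.26% in MT-2. The 3 changes of a line share its untreated array, so an error of that array enters all of them.

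**Figure D3:**
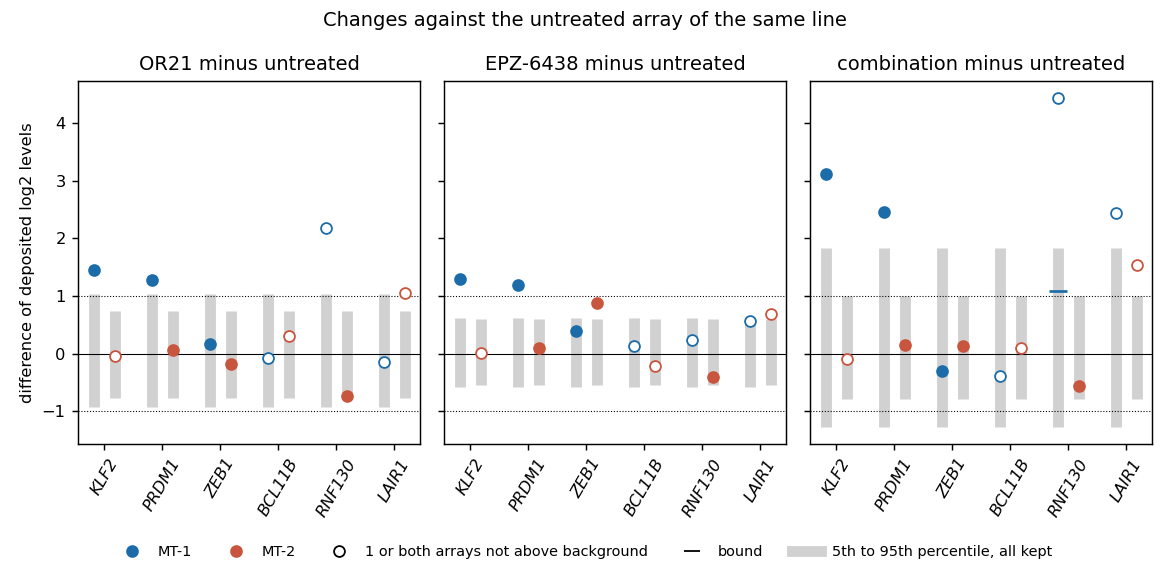
Difference of the deposited log2 level from the untreated array of the same line (vertical axis) for each gene, by treatment, with MT-1 in blue and MT-2 in red. Open points have at least 1 array not above background, dashes give the bound against background, and grey bars span the 5th to 95th percentile of all kept probe sets. KLF2 and PRDM1 lie above the grey bars in MT-1 in all 3 panels, and ZEB1 lies above its bar with EPZ-6438 in MT-2 (0.87).

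The design asks what each agent adds to the other. Adding EPZ-6438 to OR21 in MT-1 was followed by 1.67 more for KLF2, 1.18 for PRDM1 and at least 1.24 for RNF130, with 3.52% of kept probe sets higher by 1 or more in that comparison. Adding OR21 to EPZ-6438 was followed by 1.82 more for KLF2, 1.26 for PRDM1 and at least 1.27 for RNF130, with 5.46% so higher. In MT-2 none of the 6 genes was higher by 1 or more in these comparisons, where 1.23% and 1.42% of probe sets were.

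For PRDM1 in MT-1 the combination change (2.45) differed by -0.02 from the sum of the single-agent changes (2.46). In MT-2 the difference from the sum was 0.00. KLF2 in MT-1 exceeded its sum of 2.75 by 0.37. Over the 8483 probe sets above background on all 4 MT-1 arrays, this excess ran from -0.67 (5th percentile) to 0.74 (95th percentile), so both genes lay inside that range. On the log2 scale a sum of changes is a product of folds.

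**Figure D4:**
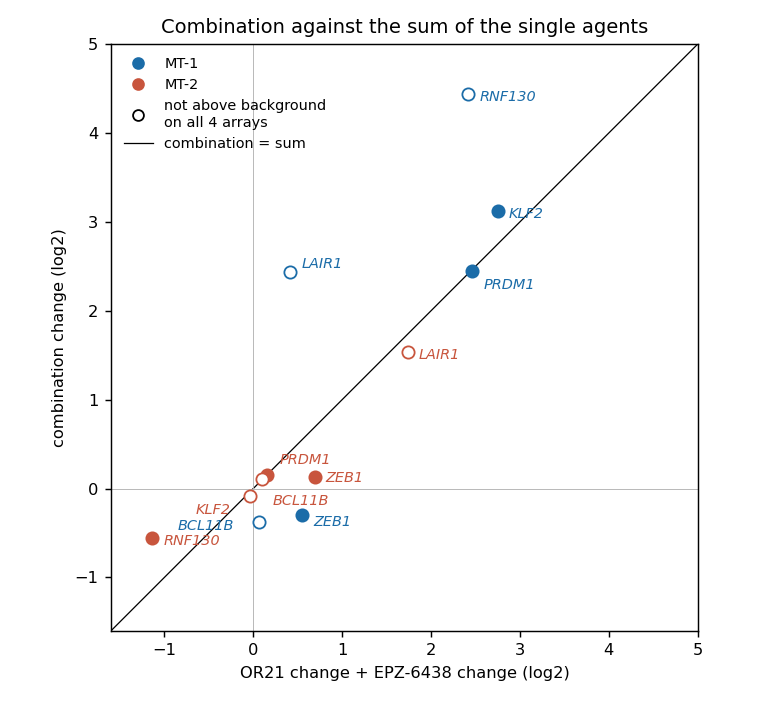
Combination change (vertical axis) against the sum of the OR21 and EPZ-6438 changes (horizontal axis), in log2 units of deposited levels, with MT-1 in blue and MT-2 in red. The line marks equality, and open points were not above background on all 4 arrays of the line. PRDM1 lies on the line in both lines of cells, KLF2 lies 0.37 above it in MT-1, and ZEB1 lies below it in both.

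ZEB1 was the member with its highest level after EPZ-6438 alone in both lines. In MT-1 it stood at 9.26 untreated, 9.42 with OR21, 9.65 with EPZ-6438 and 8.96 with the combination. In MT-2 it stood at 9.54, 9.35, 10.41 and 9.67. The EPZ-6438 changes were 0.39 (1.31-fold) in MT-1 and 0.87 (1.83-fold) in MT-2, at percentiles 87.9 and 98.5 of all changes. Neither reached 1 unit. With OR21 added, the level was lower than with EPZ-6438 alone by -0.69 in MT-1 versus -0.74 in MT-2, and the combination fell short of the sum of the single changes by -0.85 and -0.56. The 5th percentile of that excess was -0.67 in MT-1 versus -0.50 in MT-2 (7757 probe sets above background on all 4 arrays), so ZEB1 lay below it in both lines.

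RNF130 in MT-1 stood at 4.10 untreated, 6.28 with OR21, 4.34 with EPZ-6438 and 8.54 with the combination. Only the combination array was above background, which made the change at least 1.08 (at least 2.11-fold). The deposited values themselves differ by 4.44, which is 2.02 above the sum of the single-agent differences (2.42), with 3 of the 4 levels under the background. On the MT-1 combination array the list of epithelial, endothelial and fibroblast markers had its highest summed level (13.12). The T cell markers had their lowest there (12.40, against 14.00 in untreated MT-1). The part of these markers in the RNF130 result was not tested. The call of RNF130 as needing both agents rests on that bound. It was 0.85 with each array centred on its median and 0.93 with quantile normalization, and with the 99th percentile of negative controls as background RNF130 was silent on every MT-1 array. The OR21 level was 2.18 above the untreated 1 in deposited values, but both lay under the background. In MT-2 the gene was already above background at 9.67 untreated, and stood at 8.93 with OR21, 9.27 with EPZ-6438 and 9.11 with the combination. The MT-2 changes were -0.74, -0.39 and -0.56, all downward and smaller than 1. After the combination the lines stood 0.58 apart, against at least 2.21 before.

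BCL11B was not above background on any array. Its levels in MT-1 were 5.93 untreated, 5.85 with OR21, 6.07 with EPZ-6438 and 5.54 with the combination, and in MT-2 5.14, 5.45, 4.92 and 5.24. They span less than 1 unit within each line.

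LAIR1 was also under the background on all 8 arrays, with a different course. It stood at 4.08, 3.94, 4.64 and 6.52 in MT-1 and at 5.24, 6.29, 5.93 and 6.78 in MT-2, in the same order. The combination array was the highest in both lines, and was 0.67 under the background in MT-1 and 0.86 under it in MT-2. In deposited values the combination change was 2.44 in MT-1 versus 1.54 in MT-2, at percentiles 96.8 and 98.2 of all changes, which are a description only. With the 90th percentile of negative controls as background, LAIR1 in MT-1 with the combination was no longer silent. By need, then, in MT-1 KLF2 and PRDM1 passed 1 unit with each agent alone and further with both, RNF130 was above background only with both, ZEB1 passed 1 unit with none, and BCL11B and LAIR1 stayed silent. In MT-2 no member passed 1 unit, and KLF2, BCL11B and LAIR1 stayed silent.

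Treatment effects common to both lines were tested with limma over all 12942 kept probe sets, with cell line as a block. The residual spread in this fit is the disagreement of the lines, their different doses included, over 3 residual degrees of freedom. The SE and p-values use that spread after limma drew it toward a value common to the kept probe sets. No probe set had a Benjamini-Hochberg adjusted p under 0.05 (0% called) in any of the 6 contrasts. At an unadjusted p under 0.05 there were 1079 for OR21, 285 for EPZ-6438, 2489 for the combination, 223 for the excess over the sum, 917 for the combination against OR21 and 1373 against EPZ-6438. These are not numbers of responding genes, since a share of 0.05 of the 12942 tests is expected under that limit without any effect. The counts for EPZ-6438 and for the excess lay below that share, and those of the other contrasts above it. The combination effect was 1.52 ± 0.67 (SE, 8 arrays) for KLF2 with limma adjusted p = 0.282, 1.30 ± 0.50 for PRDM1 with limma adjusted p = 0.242, and 1.94 ± 1.14 for RNF130 with limma adjusted p = 0.379. In the combination effect the RNF130 estimate joins lines of opposite sign (4.44 and -0.56 in deposited values) and an untreated MT-1 level under the background, and KLF2 was under the background in all of MT-2. LAIR1 passed the filter only through the MT-2 combination array (6.78), a group under test, so no test of it is given. The EPZ-6438 effect of ZEB1 was 0.63 ± 0.26 (limma adjusted p = 1.0), higher in both lines, and its combination against EPZ-6438 was -0.72 ± 0.26 (limma adjusted p = 0.442), lower in both. For OR21 alone the limma adjusted p of KLF2, PRDM1, ZEB1 and RNF130 lay between 0.683 and 0.994. Single arrays moved the combination estimates widely. Without the MT-1 combination array they were 0.38 for KLF2, 0.54 for PRDM1 and 0.037 for RNF130, and without the untreated MT-1 array 0.52, 0.53 and 0.52. Without the MT-2 combination array they were 2.66, 2.06 and 3.85, and without the untreated MT-2 array 2.52, 2.07 and 3.37. Of these 4 fits, the one without the MT-2 combination array alone made calls for the combination effect (740 probe sets), with limma adjusted p = 0.0451 for KLF2, 0.0529 for PRDM1 and 0.0586 for RNF130. Its lone combination array, in MT-1, was assumed to vary like the other groups.

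For the 4 genes above background on at least 1 array, the genes of most similar course were looked up among 3369 named probe sets. These were above background on at least 1 array, and their levels, each line's mean taken off, spanned 1 or more over the 8 arrays together. Likeness was Pearson's r over the 8 arrays with the mean of each line taken off, a description that rests mostly on the 4 MT-1 arrays where levels moved. It used deposited levels, including those under the background, which the changes above leave out or bound. Under the background were KLF2 and FAM169A in all of MT-2 and PROS1 in all of MT-1. RNF130, SERTAD1 and PLXND1 were under it in MT-1 except with the combination. KLF2 and PRDM1 were each other's nearest gene, at r = 0.992. Next to KLF2 came FAM169A (0.990) and SERTAD1 (0.989), which codes for a regulator of E2F and cyclin-dependent kinase activity. Next to PRDM1 came the chemokine receptor CXCR4 (0.990) and the phosphatase gene CTDSPL (0.988). CXCR4 stood at 12.48, 13.52, 13.61 and 14.54 in MT-1 and between 14.51 and 14.78 in MT-2. CTDSPL stood at 6.51, 7.82, 8.06 and 9.64 in MT-1 and between 8.62 and 8.92 in MT-2. For RNF130 they were the glucose transporter SLC2A14 (0.994), the monooxygenase CYP1B1 (0.993) and the semaphorin receptor PLXND1 (0.993). CYP1B1 ran from 4.03 through 7.89 and 4.38 to 11.89 in MT-1 and from 9.79 to 10.83 in MT-2. For ZEB1 likeness was lower, with the kinase MAK (0.917), the anticoagulant protein S gene PROS1 (0.900) and the histone H3 lysine methyltransferase SUV39H1 (0.870). SUV39H1 was highest with EPZ-6438 in both lines, at 11.32 in MT-1 versus 10.17 in MT-2.

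**Figure D5:**
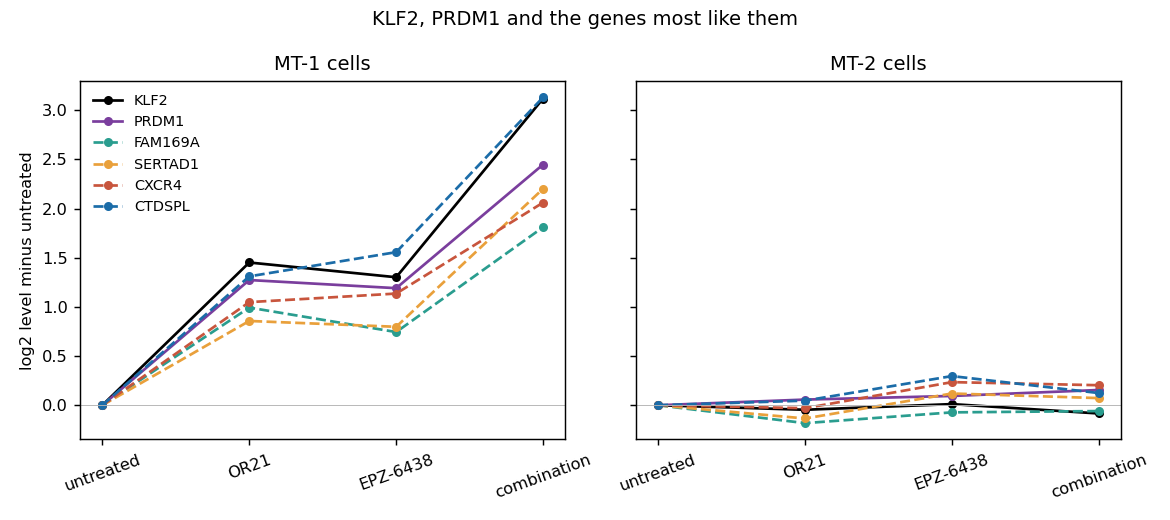
Log2 level minus the untreated array (vertical axis) over the 4 conditions in MT-1 (left) and MT-2 (right) for KLF2 and PRDM1 (solid) and for the genes most like them (dashed). In MT-1 all 6 curves have intermediate values with each single agent and their highest with the combination, and in MT-2 they stay near 0. Levels under the background are drawn as deposited.

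Genes related to the members by family or pathway are given as counts beside the shares over all kept probe sets above. Genes that pass the filter only where they are high had to differ, so these counts describe and support nothing. Of the 20 other genes reported silenced or lost in T cell leukaemia, 13 passed the filter. In MT-1, 2 were higher by 1 or more with OR21, 1 with EPZ-6438 and 4 with the combination, and none was lower. In MT-2 there was 1 higher and 1 lower, both with the combination. The median deposited change with the combination was 0.85 in MT-1 versus 0.15 in MT-2, against -0.05 and -0.02 over all kept probe sets. DAPK1, a kinase that promotes cell death, was higher by 1.23 with OR21, 0.13 with EPZ-6438 and 2.99 with the combination in MT-1, and by 0.14, 0.02 and 0.00 in MT-2, where it stood at 13.66 untreated. CDKN1A encodes p21, an inhibitor of cyclin-dependent kinases, and with the combination its MT-1 change was at least 2.0. For TNFAIP3, whose product restrains NF-kappaB signalling, the MT-1 changes were 1.66, 0.93 and 1.96. PRDM16, a paralog of PRDM1, was above background in MT-1 with EPZ-6438 alone, at 9.81 against 6.57 untreated and 6.92 with the combination (at least 2.35 with EPZ-6438).

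In the KLF family 8 of 11 listed genes passed the filter, and MT-1 had 1 of them up by at least 1 unit with OR21 and 3 with the combination, against 2 with the combination in MT-2. KLF10, a target of TGF-beta signalling, was higher by 1.35 with OR21, 0.42 with EPZ-6438 and 2.52 with the combination in MT-1. KLF11 was higher by at least 1.75 and KLF7 by 1.31 with the combination in MT-1. KLF5 was higher by at least 2.42 and KLF7 by 1.02 with the combination in MT-2. Of the 6 genes listed as driven by KLF2, 3 passed the filter. The lymphocyte egress receptor S1PR1 was the gene among them to pass 1 unit, at 14.34, 15.40, 14.60 and 15.91 in MT-1 (changes of 1.06, 0.26 and 1.57) and 11.77, 11.26, 12.29 and 12.28 in MT-2. The lymph node homing receptor CCR7 changed by 0.04 to 0.38 in MT-1.

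PRDM1 is known to repress MYC and BCL6, and 7 of the 10 genes on that list passed the filter. MYC was lower by -1.19 with OR21, -0.24 with EPZ-6438 and -2.21 with the combination in MT-1, and by -0.72, -0.19 and -0.95 in MT-2. BCL6, itself a transcriptional repressor, was higher by 0.95, 0.25 and 2.87 in MT-1 and by 0.84, 0.61 and 1.29 in MT-2. ID3 was higher by at least 2.42 with the combination in MT-1, and the repressor BACH2 by 0.49, 1.31 and 1.57 in MT-2. So with the combination the list had 2 genes above and 1 below the threshold of 1 in MT-1, against 2 above and none below in MT-2.

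Of the 10 genes listed as repressed by ZEB1, 6 passed the filter, and with the combination 2 gained 1 unit or more in MT-1 (BCL6 and the epithelial adhesion molecule EPCAM, at least 1.20) and 1 in MT-2 (BCL6). With EPZ-6438, where ZEB1 was highest, none changed by 1 or more, and the list's median was 0.18 in MT-1 versus -0.16 in MT-2 against -0.02 over all kept probe sets in each. Among 10 kept partners and relatives of ZEB1, SNAI2, a repressor of epithelial genes, was higher by at least 2.35 with the combination in MT-1, and the receptor TGFBR2 was lower by -1.15 with OR21 in MT-1. ZEB2, the paralog, stood at 7.33 untreated in MT-1, not above background, versus 9.30 in MT-2.

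Around BCL11B, 10 of 12 listed partners and commitment factors passed the filter. Its paralog BCL11A was higher by 1.66 with OR21, 0.44 with EPZ-6438 and 1.64 with the combination in MT-1, and changed by -0.36, -0.51 and -0.06 in MT-2. LEF1, a T cell transcription factor of the Wnt pathway, was higher by 0.67, 0.29 and 2.04 in MT-1 and changed by -0.02, 0.93 and 1.24 in MT-2. MTA1, a subunit of the NuRD repressor complex, was lower by -1.04 with OR21 and -1.33 with the combination in MT-1, and NOTCH1 by -1.20 or lower with OR21 in MT-2. Of the 9 natural killer programme genes that BCL11B is known to hold down, 4 passed the filter, and 3 of these gained 1 unit or more with the combination in MT-1. ID2, an inhibitor of E proteins, ran from 8.20 untreated to 11.48, 9.09 and 13.32 in MT-1 (changes of 3.28, 0.89 and 5.12) and stood between 16.19 and 16.59 in MT-2. The cytokine receptor chain IL2RB was higher by at least 5.15 and the adaptor TYROBP by 1.97 with the combination in MT-1. NFIL3 was higher by 1.64 with the combination in MT-2.

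Of the 10 relatives of RNF130 in the PA-TM-RING family, 5 passed the filter and RNF149 passed 1 unit. It ran from 5.62 untreated to 7.88, 6.15 and 9.41 in MT-1 (at least 1.95 with the combination), and stood between 9.08 and 9.50 in MT-2. Like RNF130, it was under the background in untreated MT-1 and above it in untreated MT-2. Unlike RNF130, it was also above background in MT-1 with OR21 alone (7.88 against a background of 7.29). Of 16 listed relatives, ligands and phosphatases of LAIR1, 8 passed the filter. LAIR2, the secreted decoy of LAIR1, was higher by at least 0.46, at least 0.64 and at least 1.08 in MT-1 and by 0.62, 0.43 and 1.28 in MT-2. PTPN6, the phosphatase SHP-1 that acts below LAIR1, stood at 4.16 untreated and 7.27 with the combination in MT-1, above background only on the latter, and between 3.28 and 3.77 in MT-2. Of 8 reference genes, 1 differed by 1 or more in the 6 comparisons with untreated (PGK1, -1.11 with the combination in MT-1).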

How the data were processed

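Biotin-labelled cDNA from total RNA of MT-1 and MT-2 cultures was hybridised to 1-colour arrays, 1 for each of 8 groups, and this number bounds the precision. The deposited values are log2 levels that the authors made with RMA, per the submitters' processing notes. The table states no log base (base 2 follows from RMA), and its values reach 18.9, above what a 16-bit scanner gives. RMA version and annotation release: not given in the sources used here.

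Of 24351 entries, 2903 controls were left out. Of 21448 transcript probe sets, 17709 had 1 gene symbol, 0 several and 3739 none. The 12942 whose highest value reached the table median (6.57) were kept. Where 1 of the arrays compared was above background, the change is a bound against the higher of the background and the dim value, and where neither was, none is given. limma (version 3.58.1, in R 4.3.3) fitted line and treatment with an untrended eBayes step, checked on simulated data. Since no culture was repeated, p-values rest on the spread between the lines, not between cultures. The eBayes step drew each gene's spread toward a value common to the kept probe sets.

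The members and gene lists were chosen with earlier results of these data known. Named are the members, up to 4 genes per list that passed 1 unit with a level above background, by size, and the 3 genes most like each member above background on an array. CCR7, ZEB2 and PTPN6 were chosen after their values were seen. Alternatives were the scaling, the filter, the trend, the background percentile, the threshold and leaving out single arrays.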

Additional observations from a re-analysis of the deposited data

Results flagged for a closer look

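Members whose change had opposite signs in the lines were listed. The difference between the lines was not tested, since each line has 1 array per treatment. For RNF130 the combination change was at least 1.08 in MT-1 against -0.56 in MT-2, a gap of at least 1.64. For ZEB1 it was -0.30 against 0.13 (a gap of -0.44), and with OR21 the ZEB1 changes were 0.16 and -0.18 (a gap of 0.34).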

How the results depend on the processing

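No paired analysis was possible because every group has a single array; cell line is already a block in the fit. Of the member values within or between lines under other scalings and background rules, 129 stayed within the gene's residual spread and 5 moved. No value of 1 or more turned sign. That spread is the disagreement of the lines in the across-line fit (1.61 for RNF130 and 0.93 for KLF2), a wide limit. Values for which a setting gave no change were not counted. With each array centred on its median, or with quantile normalization, the bound of RNF130 in MT-1 fell under 1, so 0 members in place of 1 needed the combination, and with a threshold of 1.5 there were 2. Background at the 90th percentile left 1 silent member in MT-1 in place of 2 and made 1 lower in untreated MT-2. At the 99th percentile 1 member in place of 2 was higher with OR21, with EPZ-6438 and with each agent in MT-1 (PRDM1), 2 in place of 3 with the combination and 3 in place of 2 were silent (RNF130 added), KLF2 in place of RNF130 was the member that needed the combination, and 0 were higher in untreated MT-2 in place of 1. With a threshold of 0.5, 1 member was lower in MT-2 with OR21 and 1 with the combination, 1 was higher with EPZ-6438, and 2 were higher in untreated MT-2, as with cyclic loess and quantile normalization. With a threshold of 1.5, 0 were higher with either agent alone. Without a background level (chosen after seeing the data), RNF130 was higher with OR21 alone in MT-1 (3 members in place of 2), LAIR1 in place of RNF130 needed the combination there (4 higher in place of 3), 1 member was higher in MT-2 with OR21 and 1 with the combination (LAIR1), and 2 were higher and 1 lower in untreated MT-2.

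Probe sets called across lines numbered 10 for the combination with an eBayes trend, 1 for the combination against EPZ-6438 with quantile normalization, and 0 to 740 (combination), 0 to 7 (excess), 0 to 72 (against OR21) and 0 to 231 (against EPZ-6438) with single arrays left out, the highest each without the MT-2 combination array. The cause was not tested. Across-line estimates that turned sign when single arrays were left out ranged, for OR21, from -0.70 to 2.15 (RNF130), -0.10 to 1.43 (PRDM1), -0.34 to 0.32 (ZEB1), -0.30 to 1.70 (KLF2) and -0.27 to 1.18 (LAIR1, under the background throughout), for EPZ-6438 from -1.50 to 1.35 (RNF130), -0.13 to 1.41 (PRDM1) and -0.34 to 1.66 (KLF2), and for the combination from -0.28 to 0.11 (ZEB1). Those of KLF2 and PRDM1 turned without the untreated MT-1 array. ZEB1 also turned with cyclic loess (0.12 for OR21, 0.042 for the combination) and quantile normalization (0.090 for OR21).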
